A study of Arabidopsis thaliana with 24 samples.

Results

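The quantity described here is the difference of the response to hydrogen peroxide between bzip68 mutant and wild-type seedlings of Arabidopsis thaliana. For every gene it was taken as the log2 change from mock to H2O2 in bzip68 minus the log2 change from mock to H2O2 in wt, so that a positive value means a more positive response in the mutant. No gene was chosen by its values. Of 18430 genes in the authors' count table, 18205 passed a filter on low counts and all of them were tested. The measurement rests on 12 of the 24 samples of the series. All 4 groups were whole seedlings aged 14 days, grown under white light of 125 µmol per square metre per second and then sprayed. Mock wt and mock bzip68 plants received 0.01% Triton X-100 in water, and H2O2 wt and H2O2 bzip68 plants received 5 mM H2O2 with the same detergent, with 3 libraries in each group. The detergent and the spraying were therefore shared by treated plants and controls. The sources used here do not name the mutant allele, the number of mutant lines or the time from spraying to harvest. Whether the libraries of a group were grown as separate cultures is not labelled, and the p-values therefore describe the spread among these libraries alone, which may be technical.

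Hydrogen peroxide is both a damaging oxidant and a signal in plants. It sets off small heat shock proteins through heat shock factors, transcription factors of the WRKY and zinc finger families, and detoxifying enzymes, and mitochondria under stress signal to the nucleus to raise the alternative oxidase. bZIP68 is a group G basic leucine zipper protein, a class that binds the G-box, and a genotype by treatment comparison asks whether the loss of such a factor alters the size of a response rather than the level of a gene.

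Library totals ran from 8997073 to 10262992 counts. The levels of bZIP68 (AT1G32150), in counts scaled to a common library size (CPM), were 7.9, 9.15 and 10.1 in mock wt, 8.56, 8.75 and 7.1 in H2O2 wt, 0.205, 0.117 and 0.108 in mock bzip68, and 0.218, 0 and 0.214 in H2O2 bzip68, so the labels and the targeted gene went together in all 12 libraries. With so few counts in the mutant its own difference of responses could not be placed (0.14 ± 0.89 on the log2 scale, SE, 3 libraries per group). On the principal components 2 libraries stood apart, replicate 2 of mock bzip68 and replicate 2 of H2O2 wt. Chloroplast genes took 0.0121% of the counts of the latter and 1.05% to 1.54% of those of the other 11 libraries. Of the listed genes, 46 of 46 for photosynthesis and 16 of 20 root markers passed the filter. In bulk tissue fewer cells of a type and less RNA per cell cannot be told apart.

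No gene passed the main test for a difference of responses, which does not pair libraries. Of 18205 genes, 0 (0%) had a Benjamini-Hochberg adjusted p under 0.05 in edgeR's quasi-likelihood test, and the lowest adjusted p was 0.522. Without adjustment, 1178 genes (6.47%) had p under 0.05, of which 621 (3.41%) were higher and 557 (3.06%) lower in bzip68 than in wt. Of all genes, 252 (1.38%) had p under 0.01 and 25 (0.137%) had p under 0.001. With the replicate number as a block within genotype, 8 genes were called, 6 higher and 2 lower. This fit takes up the pairing of mock and H2O2 bzip68 libraries seen in the data, which the main test leaves out. It also pairs the wt libraries by number, although same-numbered mock and H2O2 wt libraries did not deviate together (r = -0.15, -0.07 and -0.1). DESeq2 called 24 genes, 20 higher and 4 lower, a set that holds all 8, and limma voom with library weights called 0 genes with 2043 at p under 0.05. Leaving out mock wt replicate 3 gave 26 called genes, all of them higher, of which 14 were also called by DESeq2. The 24 genes of DESeq2 all had unadjusted p under 0.05 in edgeR, the highest being 0.00217. For each gene named by rule below with a call in such an alternative, the adjusted p over all alternatives ran up to 0.976.

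**Figure D1:**
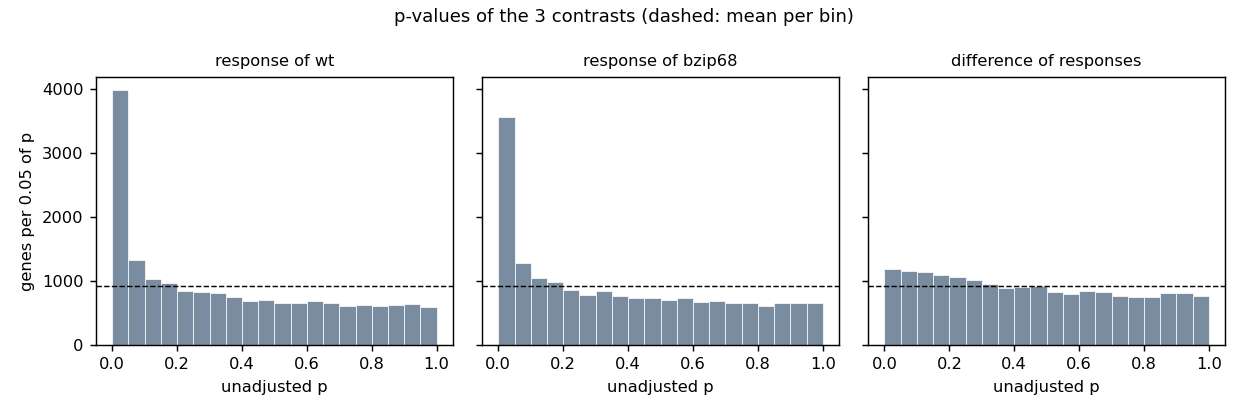
Histograms of unadjusted edgeR p-values over 18205 genes for the response of wt, the response of bzip68 and their difference, in bins of 0.05 (x axis, p; y axis, number of genes; dashed line, mean per bin). The lowest bin holds 3980, 3549 and 1178 genes in turn, against a mean of 910.25 per bin. The next bin holds 1324, 1278 and 1154, so for the difference the lowest bin hardly stands above its neighbour.

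The precision of a difference between responses was lower than that of either response. The median SE was 0.25 on the log2 scale for the difference and 0.18 for each response, and the median 95% interval reached 0.54 to either side. For 12683 genes (69.7%) the whole interval lay within a 2-fold difference in either direction. For the remaining genes a difference of 2-fold or more lay inside the interval. Across genes the median difference was 0.00, and the 5th and 95th percentiles were -0.56 and 0.64.

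The genes that changed from mock to H2O2 did so in the same direction in both genotypes wherever both changes were called. The hour at which each group was harvested is not labelled, and its part in these responses was not tested. In wt 1773 genes (9.74%) changed, 913 (5.02%) up and 860 (4.72%) down, and in bzip68 1346 genes (7.39%) changed, 748 (4.11%) up and 598 (3.28%) down (edgeR quasi-likelihood test, adjusted p under 0.05). Both responses were called for 863 genes, 508 up in both, 355 down in both and 0 in opposite directions. The 863 genes are 48.7% of the wt calls and 64.1% of the bzip68 calls. The wt count was 1126 without mock wt replicate 3 and 1145 without mock wt replicate 1. The bzip68 count was 719 without H2O2 bzip68 replicate 3 and 791 without mock bzip68 replicate 3.

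Genes called in a single genotype mostly leaned the same way in the other. Of 910 genes called in wt alone, 807 (88.7%) had the same sign in bzip68, with a median change in the called direction of 0.70 in wt and 0.31 in bzip68. Of 483 genes called in bzip68 alone, 441 (91.3%) had the same sign in wt, with medians of 0.77 in bzip68 and 0.35 in wt. These classes were cut from the same libraries, so the smaller value in the genotype without a call is fixed in part by the choice. None of these genes passed the test of the difference itself, and 307 and 141 of them had unadjusted p under 0.05. Among the 863 genes called in both, the response was larger in wt for 499 and in bzip68 for 364, and the median sizes were 1.04 and 0.95. The wt and bzip68 responses share no libraries, and across 18205 genes, which are not independent replicates, they correlated at r = 0.64 and rho = 0.44.

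**Figure D2:**
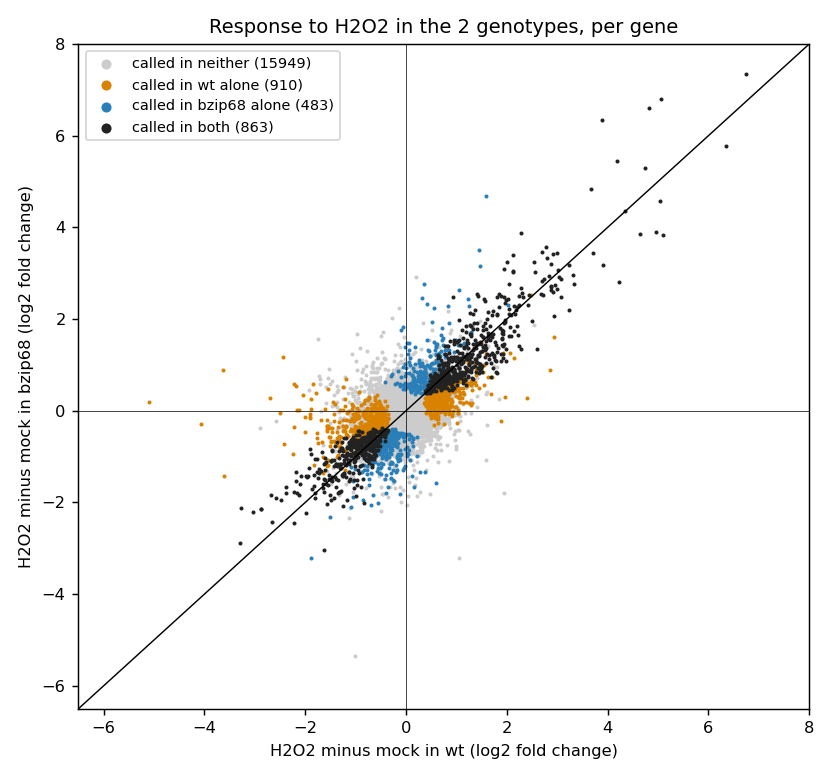
The response to H2O2 in wt (x axis, log2 fold change) and in bzip68 (y axis, log2 fold change), 1 point per gene for 18205 genes, coloured by the genotype in which the response was called, with the line of equal response. None of the 863 genes called in both has responses of opposite sign, and some of the largest responses lie off the line, such as HSP17.6II at 3.89 in wt and 6.35 in bzip68.

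Among the 1178 genes with p under 0.05, the gap between the genotypes usually pointed opposite ways in mock and in H2O2 plants. Of the 621 higher genes, 514 had gaps of opposite sign, with bzip68 below wt after mock treatment and above wt after H2O2, and over all 621 the median gap was -0.40 in mock and 0.32 in H2O2 plants. In wt 212 of them fell after H2O2 and 22 rose, in bzip68 95 rose and 28 fell, and 314 were called in neither. Of the 557 lower genes, 519 had gaps of opposite sign, with medians of 0.32 in mock and -0.30 in H2O2 plants. In wt 159 of them rose and 7 fell, in bzip68 75 fell and 36 rose, and 323 were called in neither. Over all genes 5.02% rose and 4.72% fell in wt, and 4.11% rose and 3.28% fell in bzip68. The choice of genes by the sign and p of the difference fixes these directions in part. The gaps and the calls are parts of the same difference and are given as a description.

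The lists with the largest shifts toward a higher response in bzip68 were heat shock (median difference 0.78), touch and calcium (0.50), mitochondrial stress (0.49), oxidative stress regulators (0.43) and flavonoid and high light (0.35), apart from the chloroplast-encoded genes described further on. Sugar starvation (-0.38) and root markers (-0.40) lay on the other side. Over all genes tested 50.2% were positive and the median was 0.00, and 3.41% were higher and 3.06% lower at p under 0.05. For the responses, 5.02% of all genes rose and 4.72% fell in wt, and 4.11% rose and 3.28% fell in bzip68. The counts for each list below stand against these shares. The medians of these 7 lists kept their sign in all 24 alternative analyses, though no member was called in the main test. So did the smaller medians of ribosome biogenesis, auxin, glutathione S-transferase and reference genes, and the alternatives reuse the same libraries. The lists were chosen with earlier results of these data known. All lists share the 12 libraries, and their genes are not independent of each other.

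**Figure D3:**
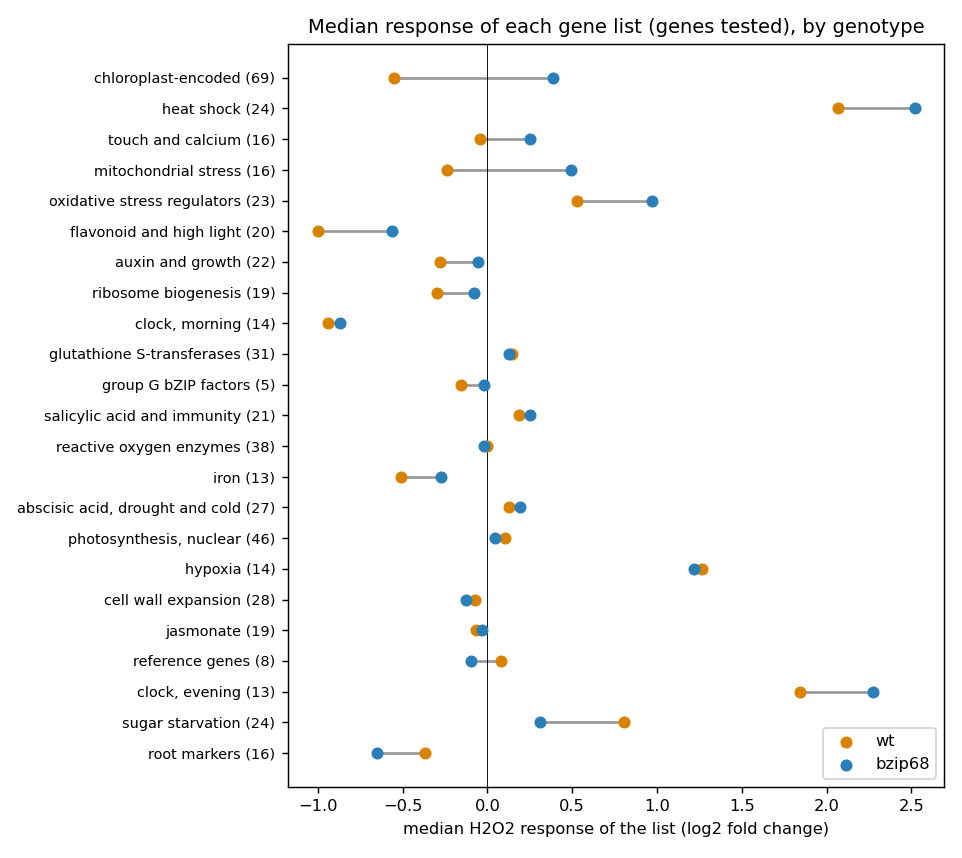
Median response to H2O2 of each gene list in wt (orange) and bzip68 (blue), on a log2 scale, with the number of genes tested in parentheses and lists ordered by the median difference of responses. Heat shock genes have medians of 2.07 and 2.52, mitochondrial stress genes -0.24 and 0.50, and sugar starvation genes 0.80 and 0.31.

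Heat shock genes rose after H2O2 in both genotypes. Of 24 tested, 16 rose and 1 fell in wt, and 19 rose and 1 fell in bzip68. In the difference of responses 21 of 24 were positive and 12 (50%) had p under 0.05, all higher, against 3.41% of all genes. HSP17.6II (AT5G12020), a cytosolic class II small heat shock protein, was at 2.24, 0.669 and 0.595 CPM in mock wt and at 0.41, 0.351 and 0.542 in mock bzip68. After H2O2 it was at 14.9, 21.9 and 15.5 CPM in wt and at 29.4, 36.4 and 43.7 in bzip68. All H2O2 bzip68 libraries lay above all H2O2 wt libraries, while in the mock groups all bzip68 libraries lay just below all wt libraries. It rose by 3.89 ± 0.33 (log2, SE) in wt and by 6.35 ± 0.38 in bzip68, a difference of 2.46 ± 0.62 (95% interval 1.13 to 3.78, edgeR unadjusted p = 0.0013, adjusted p = 0.588, and 0.0369 in DESeq2). Without mock wt replicate 1, which had the highest mock level, the difference was 1.58.

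AT5G51440, annotated as an HSP20-like chaperone, showed a different pattern. Its levels were 29.1, 31.7 and 11.2 CPM in mock wt, 31.7, 34.4 and 22.8 in H2O2 wt, 7.79, 11.6 and 7.58 in mock bzip68, and 39.6, 41.8 and 66.7 in H2O2 bzip68. It rose in bzip68 (2.46 ± 0.37) and had a response of 0.31 ± 0.34 in wt, where mock and H2O2 libraries overlapped. The difference was 2.15 ± 0.51 (edgeR adjusted p = 0.588, 0.0069 in DESeq2 and 0.0161 without mock wt replicate 3). AT1G59860, another HSP20-like chaperone, rose from 3.1, 3.68 and 3.97 to 17.9, 16.3 and 13.1 CPM in wt and from 1.85, 2.22 and 1.95 to 17.8, 20.9 and 24.8 CPM in bzip68. Its difference was 1.26 ± 0.29 (edgeR adjusted p = 0.588), with the mock libraries of the genotypes apart and the H2O2 libraries overlapping. HSP23.6-MITO, a small heat shock protein of mitochondria, had few counts. Its raw counts were 8, 1 and 4 in mock wt and 1, 1 and 2 in mock bzip68. After H2O2 they were 20, 13 and 10 in wt and 22, 28 and 63 in bzip68. In CPM the H2O2 levels were 1.97, 1.22 and 1.01 in wt and 2.4, 3.04 and 6.73 in bzip68, narrowly without overlap. Its difference was 3.095 ± 1.02 (edgeR adjusted p = 0.71).

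Other genes of the list were picked out after their values were seen. HSP90.1, an inducible HSP90, rose by 2.70 in wt and 3.46 in bzip68, a difference of 0.76 ± 0.28. HSFA2, a heat shock factor that sustains the heat response, rose by 2.01 and 3.26 (difference 1.25 ± 0.60). HSP101, a disaggregating chaperone, differed by 0.44 ± 0.40, and DREB2A, a factor of drought and heat responses, by 0.08 ± 0.27. Small heat shock genes of a class are close in sequence, so their separate values are uncertain. Within the groups, H2O2 bzip68 replicate 3 was the highest of its group for 22 of 24 heat shock genes and H2O2 wt replicate 3 was the lowest of its group for 21 of 24. Over all genes tested these shares were 32.3% and 32.2%. Without H2O2 bzip68 replicate 3 the median difference was 0.58 with 9 genes at p under 0.05, and without mock wt replicate 1 it was 0.76 with 5.

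The heat shock factors bind repeated GAA and TTC blocks, and windows that hold such blocks are shown because they belong to list members with p under 0.05. The search used GAANNTTCNNGAA on both strands of the 500 bases before the gene start in the RefSeq TAIR10.1 genome, and 7 of 24 heat shock promoters (29.2%) held it, against 156 of 18055 (0.864%) promoters of the genes tested. The sequences run 5′ to 3′ on the strand of the gene, with the match in capitals. The windows lie at chr3:16984934-16984986 (minus strand) for HSP17.4, chr1:19980226-19980278 (plus) for AT1G53540 and chr5:21352242-21352294 (plus) for HSP90.1, and the matches start 99, 53 and 295 bases before the gene.
HSP17.4: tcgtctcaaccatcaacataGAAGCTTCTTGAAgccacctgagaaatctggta
AT1G53540: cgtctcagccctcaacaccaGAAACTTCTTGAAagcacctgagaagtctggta
HSP90.1: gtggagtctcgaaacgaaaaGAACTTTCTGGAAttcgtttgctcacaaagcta
HSP17.4 and AT1G53540, both small heat shock genes, rose by 4.18 and 5.05 in wt and by 5.46 and 6.79 in bzip68. A match is a description of letters and not a site of binding.

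Genes of mitochondrial stress had a median response of -0.24 in wt and 0.50 in bzip68. Of 16 tested, 12 differences were positive and 8 (50%) had p under 0.05, all higher, against 3.41% of all genes. In wt 4 fell and 2 rose (37.5% called, against 9.74% of all genes). In bzip68 2 rose and 0 fell (12.5%, against 7.39%). AOX1A (AT3G22370), the alternative oxidase that bypasses the cytochrome chain, was at 165, 226 and 85.4 CPM in mock wt, 67.9, 73.5 and 58.4 in H2O2 wt, 53.1, 64.7 and 56.7 in mock bzip68 and 74.4, 69.2 and 107 in H2O2 bzip68. Mock wt replicates 1 and 2 were the highest of all libraries, while mock wt replicate 3 lay below the highest H2O2 bzip68 library. AOX1A fell in wt (-1.25 ± 0.28) and had a response of 0.52 ± 0.28 in bzip68, a difference of 1.78 ± 0.39 (95% interval 0.92 to 2.63, edgeR adjusted p = 0.588). The difference was called by DESeq2 (adjusted p = 0.0069) and without mock wt replicate 3 (adjusted p = 0.0161). Its fall in wt was no longer called without H2O2 wt replicate 3, with an adjusted p of 0.0578.

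A high level in mock wt was also seen in other genes of the list. AT2G21640, annotated as a marker of the oxidative stress response, was at 22.9, 25.3 and 7.83 CPM in mock wt and at 2.66, 3.48 and 3.75 in H2O2 wt. In bzip68 it was at 5.33, 6.09 and 5.42 CPM after mock treatment and at 3.16, 5.54 and 7.59 after H2O2. No H2O2 wt library reached the lowest mock wt library. AT2G21640 fell in wt (-2.49 ± 0.40), its response in bzip68 was -0.04 ± 0.41, and the difference was 2.45 ± 0.57 (edgeR adjusted p = 0.588, 0.0118 in DESeq2 and 0.0161 without mock wt replicate 3). NAC13, a membrane-bound factor of mitochondrial signalling, was at 64.2, 74.8 and 25.7 CPM in mock wt, and its other 9 libraries lay between 16 and 39.1 CPM. SOT12, a sulfotransferase, was at 113, 154 and 46.1 CPM in mock wt and between 18.1 and 66 in the others, with a difference of 2.42 ± 0.70. BCS1, a mitochondrial AAA protein, and UGT74E2, which glucosylates an auxin precursor, had differences of 2.101 ± 0.82 and 2.39 ± 1.01. The falls of NAC13 and SOT12 in wt each lost their call when any of several single libraries was left out, with adjusted p up to 0.092 and 0.139.

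Glucosyltransferases outside that list were also high in mock wt. UGT73C6 was at 121, 170 and 51.6 CPM in mock wt, at 28.1, 21.4 and 23.6 in H2O2 wt, at 27.6, 32.5 and 27.3 in mock bzip68 and at 24.9, 33.6 and 71.9 in H2O2 bzip68. All but mock wt replicate 3 of the mock wt libraries lay above every other library. Its response was -2.23 ± 0.47 in wt and 0.58 ± 0.46 in bzip68, a difference of 2.81 ± 0.65 (edgeR adjusted p = 0.588, 0.0369 in DESeq2 and 0.0427 without mock wt replicate 3). DOGT1, its neighbour, which glucosylates brassinosteroids and a fungal toxin, had a difference of 2.73 ± 0.66. The falls of both in wt lost their call without H2O2 wt replicate 2 or 3, and that of DOGT1 also without H2O2 wt replicate 1, at adjusted p up to 0.0594 and 0.0656. The 2 genes are alike in sequence, and UGT73C6 is overlapped along its length by a gene on the other strand, so reads may be shared. In mock wt, replicate 3 was the lowest library for 10 of 16 mitochondrial stress genes and replicate 2 the highest for 15 of 16. H2O2 bzip68 replicate 3 was the highest of its group for 13 of 16. The median difference was 0.28 without mock wt replicate 2, with 6 genes at p under 0.05, and 0.60 without mock wt replicate 3, where 3 members were called. Without mock wt replicate 2 and mock bzip68 replicate 1 together, the pair whose column names do not begin with BC as the other 10 do, it was 0.18 with 5 genes.

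Some promoters of these genes hold the mitochondrial dysfunction motif, which is bound by NAC factors such as NAC13. It was found by a search of both strands in 3 of 16 promoters of the mitochondrial stress list (18.8%), in 4 of 24 heat shock promoters (16.7%) and in 302 of 18055 (1.67%) of all, within 500 bases of the gene start. The following windows are shown because their genes had p under 0.05, with the motif in capitals, 5′ to 3′ on the strand of the gene (RefSeq TAIR10.1). They lie at chr2:9254307-9254359 (plus) for AT2G21640, chr4:2572328-2572380 (plus) for NDB2 and chr2:15421891-15421943 (minus) for UGT73C6, and the motif starts 51, 79 and 57 bases before the gene.
AT2G21640: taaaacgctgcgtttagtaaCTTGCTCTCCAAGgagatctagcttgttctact
NDB2: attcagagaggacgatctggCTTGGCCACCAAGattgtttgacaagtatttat
UGT73C6: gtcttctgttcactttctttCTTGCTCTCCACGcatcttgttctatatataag
NDB2, an external NADH dehydrogenase of mitochondria, was picked out for its window after its values were seen, and rose in bzip68 by 0.55 (edgeR adjusted p = 0.0427) against a response of -0.11 in wt.

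**Figure D4:**
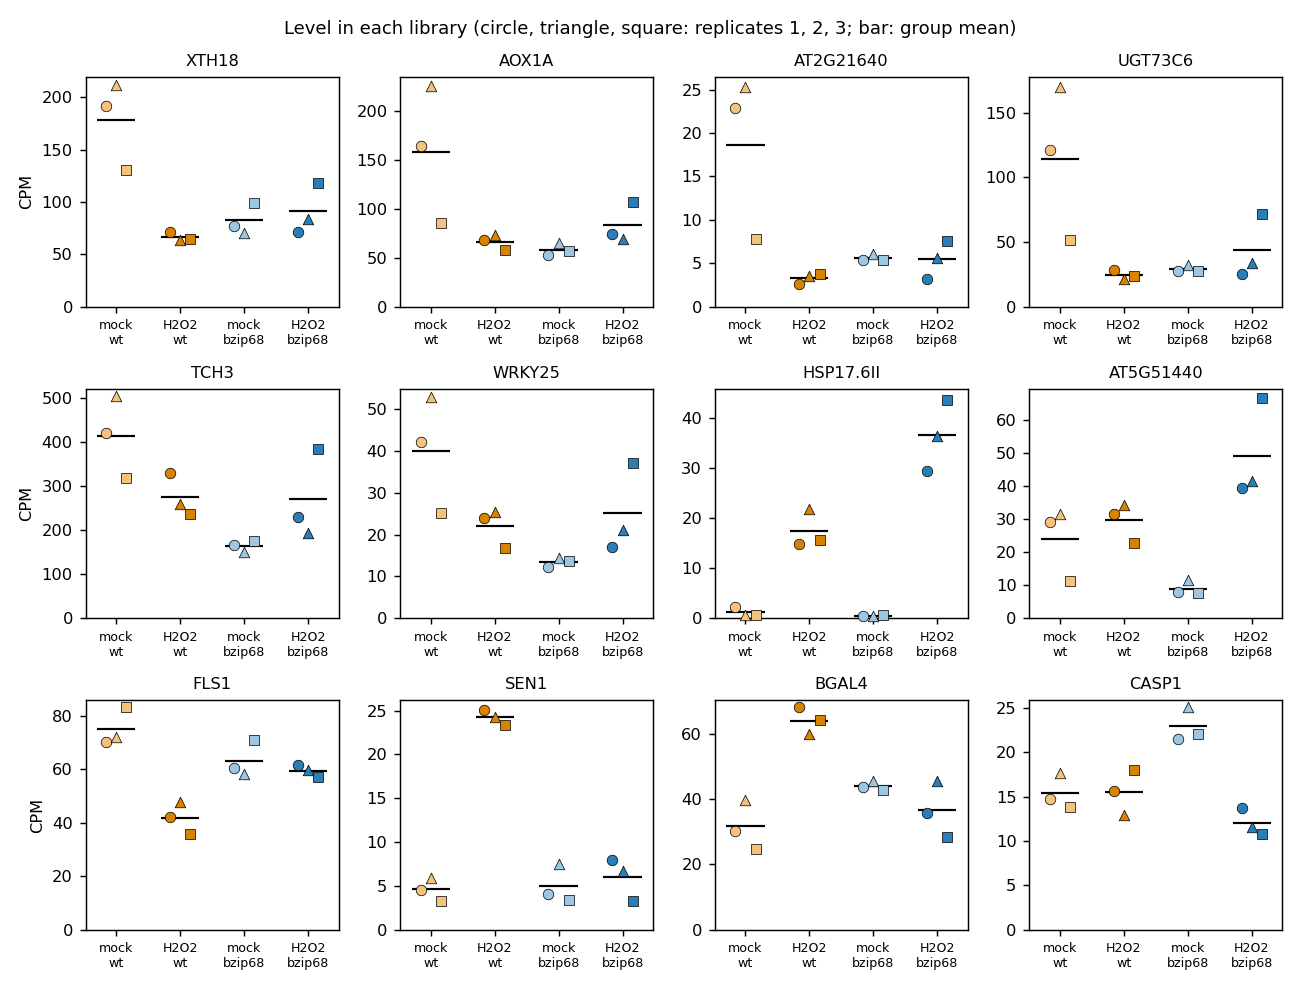
Level (y axis, CPM, from 0) of 12 genes in each of the 12 libraries, by group (x axis), with a symbol for each replicate and a bar at the group mean. AOX1A, AT2G21640 and UGT73C6 are high in mock wt, with replicate 3 below replicates 1 and 2, HSP17.6II and AT5G51440 are highest in H2O2 bzip68, and SEN1 is between 23.3 and 25.1 CPM in H2O2 wt and under 8 CPM elsewhere.

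Regulators of the oxidative stress response had a median response of 0.53 in wt and 0.97 in bzip68. Of 23 tested, 7 rose and 3 fell in wt, and 12 rose and 0 fell in bzip68. In the difference 20 were positive and 6 (26.1%) had p under 0.05, all higher, against 3.41% of all genes. WRKY25, a transcription factor of heat and oxidative responses, was at 42.2, 52.9 and 25.1 CPM in mock wt, 24, 25.3 and 16.9 in H2O2 wt, 12.3, 14.3 and 13.7 in mock bzip68 and 17.1, 21.2 and 37.1 in H2O2 bzip68. Mock wt lay above mock bzip68 with no overlap, and the H2O2 groups overlapped. Its responses were -0.86 ± 0.29 in wt and 0.91 ± 0.31 in bzip68, neither called, with a difference of 1.76 ± 0.43 (edgeR adjusted p = 0.588, 0.0264 in DESeq2 and 0.0237 with the replicate block within genotype). The kinase AGC2-1, which acts in signalling by reactive oxygen, had a difference of 1.63 ± 0.56. WRKY53 and WRKY30 fell in wt (-1.09 ± 0.20 and -1.57 ± 0.34) and had responses of -0.39 and -0.45 in bzip68.

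This list depended on single libraries. H2O2 bzip68 replicate 3 was the highest of its group for 22 of 23 regulators, and mock wt replicate 3 the lowest of its group for 21 of 23. The number with p under 0.05 was 2 without mock wt replicate 1 or 2, without H2O2 wt replicate 1 or 3, or without H2O2 bzip68 replicate 3, and 1 without the pair of libraries named in another style. In bzip68 the number that rose was 6 without H2O2 bzip68 replicate 3.

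**Figure D5:**
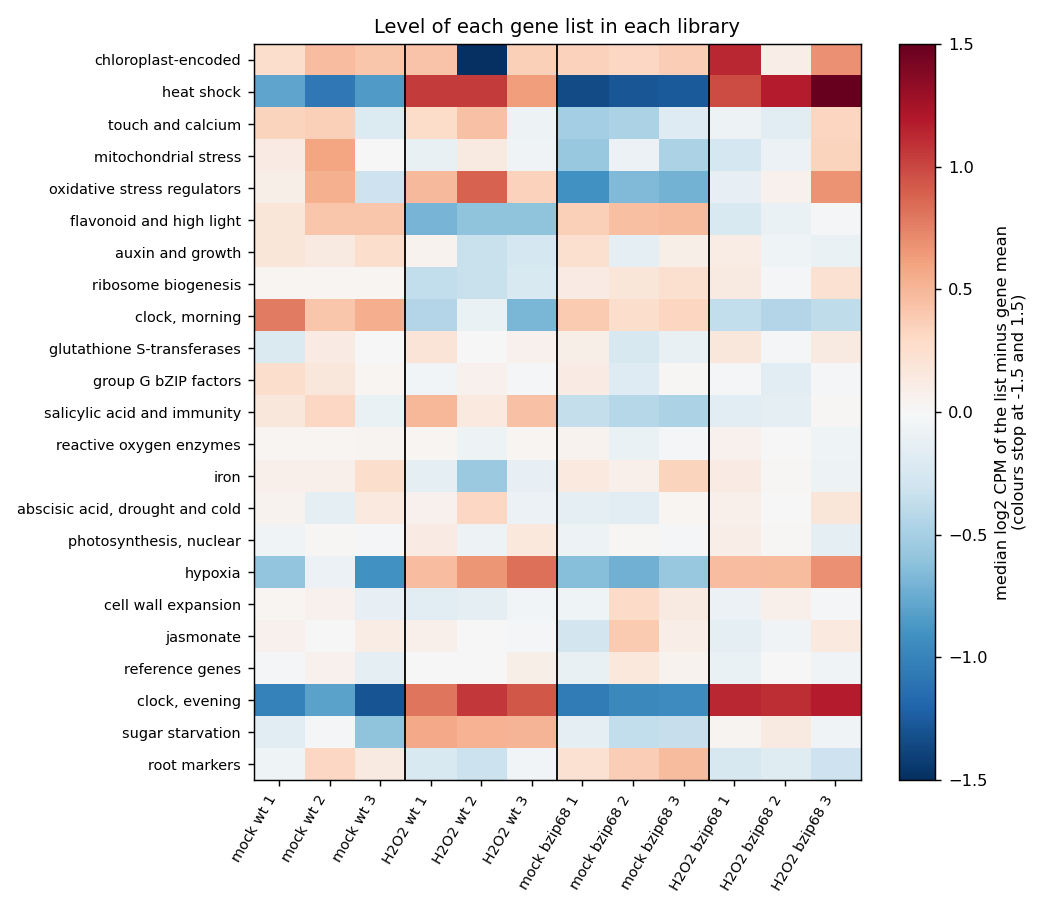
Level of each gene list (rows, ordered by median difference of responses) in each library (columns), as the median over the list of log2 CPM minus the gene's mean over the 12 libraries. Heat shock genes run from -1.35 in mock bzip68 replicate 1 to 1.76 in H2O2 bzip68 replicate 3, and the oxidative stress regulators span -0.32 to 0.53 within mock wt.

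Touch and calcium genes included the gene with the smallest p of those carrying a symbol. XTH18 (AT4G30280), a xyloglucan endotransglucosylase of the cell wall, was at 192, 212 and 131 CPM in mock wt, 71.7, 63.9 and 64.6 in H2O2 wt, 77.3, 70.3 and 99.5 in mock bzip68 and 71.2, 84 and 118 in H2O2 bzip68. Only mock wt stood apart from the other groups. XTH18 fell in wt (-1.42 ± 0.20) and had a response of 0.15 ± 0.20 in bzip68, and the difference was 1.56 ± 0.29 (95% interval 0.96 to 2.17, edgeR unadjusted p = 6.32e-05, adjusted p = 0.522). The range was 1.33 to 1.74 with 1 library left out, and the adjusted p was 0.00287 in DESeq2, 0.00908 with the replicate block within genotype and 0.0293 without mock wt replicate 3. Its close relative XTH17 also fell in wt (-1.11 ± 0.18), with -0.22 ± 0.17 in bzip68.

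TCH3, a touch-induced calmodulin-like protein, was at 422, 504 and 318 CPM in mock wt and at 166, 150 and 175 in mock bzip68. After H2O2 it was at 330, 259 and 236 CPM in wt and at 231, 195 and 385 in bzip68. The mock groups were apart and the H2O2 groups overlapped, with a difference of 1.32 ± 0.32 (edgeR adjusted p = 0.588, and 0.0467 in DESeq2). TCH3 overlaps genes on the other strand. In all, 12 of 16 touch genes were positive. At p under 0.05, 5 (31.2%) were higher and 1 (6.25%) lower, against 3.41% and 3.06% of all genes, and 8 were higher without H2O2 wt replicate 2. The smallest p of all genes belonged to AT5G64230, named here after its values were seen. It was at 11.8, 13.9 and 7.44 CPM in mock wt, 4.43, 6.02 and 3.96 in H2O2 wt, 4.62, 5.85 and 5.31 in mock bzip68 and 7.53, 8.26 and 9.73 in H2O2 bzip68, a difference of 1.89 ± 0.33 (edgeR unadjusted p = 3.86e-05, adjusted p = 0.522). Its adjusted p was 0.00561 in DESeq2, 0.0209 with the replicate block within genotype and 0.0161 without mock wt replicate 3.

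Most flavonoid and high light genes fell after H2O2 in wt. Of 20 tested, 14 fell and 1 rose in wt, and 6 fell and 0 rose in bzip68. The median response was -0.999 in wt and -0.56 in bzip68. Of the differences 18 of 20 were positive and 5 (25%) had p under 0.05, all higher, against 3.41% of all genes. FLS1, flavonol synthase, was at 70, 72 and 83.4 CPM in mock wt and 42, 47.7 and 35.7 in H2O2 wt, against 60.6, 58.2 and 70.9 in mock bzip68 and 61.6, 59.6 and 57.1 in H2O2 bzip68. H2O2 wt lay below every other library. FLS1 fell in wt (-0.84 ± 0.13) and had -0.09 ± 0.13 in bzip68, a difference of 0.76 ± 0.18 (edgeR adjusted p = 0.588).

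F3H, flavanone 3-hydroxylase, which acts just before FLS1, fell in both genotypes. It went from 120, 103 and 146 to 38.5, 42 and 36 CPM in wt and from 83.8, 100 and 105 to 53.8, 49.1 and 51.9 CPM in bzip68, a difference of 0.77 ± 0.20, and is overlapped by an antisense gene. MYB12, an activator of flavonol genes, fell in wt (-1.19 ± 0.25) with -0.33 ± 0.25 in bzip68. HY5, a bZIP factor of light responses, had a difference of 1.77 ± 0.73, with mock bzip68 libraries from 1.41 to 6.97 CPM. The number at p under 0.05 was 2 without mock wt replicate 3 and 3 without H2O2 wt replicate 1, mock bzip68 replicate 3 or H2O2 bzip68 replicate 3.

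Genes of ribosome biogenesis and auxin showed smaller shifts. Of 19 ribosome biogenesis genes 17 differences were positive with a median of 0.20, and 4 fell in wt and 0 in bzip68. PUM23, a pumilio protein of rRNA processing, fell in wt (-0.49 ± 0.14), a call lost when any of 5 wt libraries was left out (adjusted p up to 0.159), and had 0.08 ± 0.14 in bzip68, while the nucleolin NUC-L1 had -0.26 and 0.34. Without mock bzip68 replicate 1 this list had 6 genes at p under 0.05 in place of 3, and without both libraries that stood apart it had 0. The auxin list had a median of 0.20, which was 0.02 without H2O2 bzip68 replicate 1. IAA2 and IAA19, repressors of auxin signalling, had differences of 0.81 ± 0.23 and 0.82 ± 0.27, while IAA29, of the same family, had -1.77 ± 0.79. Of 22 auxin genes tested, 2 (9.09%) were higher and 1 (4.55%) lower at p under 0.05, against 3.41% and 3.06% of all genes.

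Most genes of sugar starvation rose after H2O2 in wt. Of 24 tested, 15 rose and 0 fell in wt, and 4 rose and 1 fell in bzip68. The median response was 0.80 in wt and 0.31 in bzip68, 21 of 24 differences were negative, and 7 (29.2%) had p under 0.05 and were lower, against 3.06% of all genes, with 1 higher. SEN1 (AT4G35770), a rhodanese-like protein induced by darkness and senescence, was at 4.59, 5.91 and 3.27 CPM in mock wt, 25.1, 24.3 and 23.3 in H2O2 wt, 4.1, 7.49 and 3.36 in mock bzip68 and 7.96, 6.74 and 3.31 in H2O2 bzip68. H2O2 wt was the high group and the other 3 overlapped. SEN1 rose in wt (2.40 ± 0.30) and had 0.28 ± 0.32 in bzip68, a difference of -2.13 ± 0.44 (95% interval -3.08 to -1.18, edgeR unadjusted p = 0.000261, adjusted p = 0.588). The value lay between -2.38 and -1.73 with 1 library left out, and the adjusted p was 0.00696 in DESeq2 and 0.0237 with the replicate block within genotype.

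DYL1 and AT2G33830, both dormancy-associated genes, rose in both genotypes. DYL1 went from 19.1, 19.5 and 13.3 to 66.7, 64.5 and 74.7 CPM in wt and from 26.6, 20.6 and 19.9 to 51.2, 51.6 and 40.8 CPM in bzip68. All H2O2 wt libraries were above all H2O2 bzip68 libraries, and the difference was -0.89 ± 0.23. AT2G33830 rose by 3.22 ± 0.23 in wt and 2.19 ± 0.22 in bzip68. TPS10, of the trehalose phosphate synthase family, rose in wt (0.57 ± 0.13) and had -0.08 ± 0.13 in bzip68. Leaving out replicate 3 of either wt group ended the call of TPS10, at adjusted p up to 0.0645.

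Mock wt replicate 3 was the lowest of its group for 21 of 24 sugar starvation genes, and the median difference was -0.33 without it and -0.60 without mock wt replicate 2, where 14 genes were lower at p under 0.05. In wt the number that rose was 9 without H2O2 wt replicate 3.

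BGAL4, a beta-galactosidase, had the smallest p among genes with a lower response in bzip68. It was at 30.3, 39.7 and 24.7 CPM in mock wt, 68, 59.7 and 64 in H2O2 wt, 43.8, 45.4 and 42.8 in mock bzip68 and 35.7, 45.3 and 28.4 in H2O2 bzip68. H2O2 wt lay above all other libraries. BGAL4 rose in wt (1.02 ± 0.17) and had -0.27 ± 0.17 in bzip68, a difference of -1.29 ± 0.25 (95% interval -1.81 to -0.77, edgeR unadjusted p = 8.6e-05, adjusted p = 0.522). It was called by DESeq2 (adjusted p = 0.00561) and with the replicate block within genotype (adjusted p = 0.0443). A gene on the other strand overlaps BGAL4. BXL1, a beta-xylosidase of the wall, was at 100, 125 and 78.5 CPM in mock wt and 176, 145 and 188 in H2O2 wt, against 112, 142 and 124 and then 99.7, 117 and 91.9 in bzip68. It rose in wt (0.75 ± 0.17), a call lost without mock wt replicate 3 (adjusted p = 0.0505), and had -0.30 ± 0.17 in bzip68, with its difference called by DESeq2 (adjusted p = 0.0326).

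CASP1, which builds the Casparian strip of the root endodermis, was the root marker with the smallest p. Its levels were 14.7, 17.6 and 13.9 CPM in mock wt, 15.7, 13 and 18 in H2O2 wt, 21.5, 25.2 and 22.1 in mock bzip68 and 13.7, 11.5 and 10.8 in H2O2 bzip68. Mock bzip68 lay above all other libraries. CASP1 fell in bzip68 (-0.93 ± 0.16) and had 0.01 ± 0.16 in wt, a difference of -0.94 ± 0.22 (edgeR adjusted p = 0.588). Of 16 root markers 12 differences were negative and 3 (18.8%) had p under 0.05, all lower, against 3.06% of all genes. The other 2 were PRP3, a root hair wall protein, and SHV2, which acts in root hair growth. The number was 1 without mock wt replicate 1, H2O2 wt replicate 3, mock bzip68 replicate 2 or H2O2 bzip68 replicate 1 or 3. PRP3 was at 14.5, 43.5 and 31.6 CPM in mock bzip68, so its mean rested on the middle and last replicate. The share of root tissue in the samples was not measured, and its part in these values was not tested.

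Other genes named by rule fell into these arrangements as well. ERF71, an ethylene response factor of the hypoxia response, was at 9.5, 14.5 and 3.87 CPM in mock wt and at or below 4.38 CPM in the other 9 libraries, so mock wt replicate 3 was not apart from them, and fell in wt (-2.44 ± 0.51), with a difference of 3.61 ± 0.80 (edgeR adjusted p = 0.588, 0.00561 in DESeq2, 0.0443 with the replicate block within genotype and 0.0293 without mock wt replicate 3). The hypoxia list as a whole had a median difference of -0.05, which changed sign in 5 alternatives, with medians of 1.26 in wt and 1.22 in bzip68. SPX1, a phosphate sensor, was at 45.2, 27.8 and 33.3 CPM in mock wt and between 12.9 and 22.1 CPM in the other groups, and fell in wt (-1.20 ± 0.22). AGP12, an arabinogalactan protein, fell in wt (-0.52 ± 0.12), a call lost without mock wt replicate 3 or H2O2 wt replicate 3, and had 0.14 ± 0.12 in bzip68.

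HMT3, BGLU35 and CYP707A1 changed mainly through bzip68, and HGO and KCS16 through wt. HMT3, a homocysteine methyltransferase, was at 7.38, 11.8 and 8.34 CPM in mock bzip68 and at 3.05, 3.37 and 2.25 in H2O2 bzip68, and fell there (-1.66 ± 0.31), with 0.17 ± 0.30 in wt. BGLU35, a beta-glucosidase, fell in both (-0.83 ± 0.22 in wt and -2.01 ± 0.22 in bzip68), with the wt call lost when any of 4 wt libraries was left out (adjusted p up to 0.109). CYP707A1, which breaks down abscisic acid, rose in bzip68 (0.95 ± 0.20) with -0.07 ± 0.19 in wt. HGO, of tyrosine breakdown, and KCS16, of fatty acid elongation, rose in wt (0.61 ± 0.15 and 0.73 ± 0.14) with -0.17 and 0.03 in bzip68, and the call of HGO was lost without mock wt replicate 1 or replicate 3 of either wt group (adjusted p up to 0.0723). The large negative differences of AZI1 (-1.68 ± 0.74), EBP (-1.24 ± 0.48), TIP4;1 (-1.22 ± 0.40) and PGIP2 (-1.08 ± 0.34) had wide errors, and AZI1, a lipid transfer protein of systemic immunity, ranged from 43 to 143 CPM within mock bzip68.

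Several pathways that might be looked for in an oxidative response showed medians close to that of all genes. Enzymes that handle reactive oxygen had a median difference of 0.03 over 38 genes, with 1 at p under 0.05, and for 35 of them (92.1%) the interval lay within 2-fold. That 1 gene was CAT1, a catalase, which rose by 1.501 ± 0.17 in wt and 0.84 ± 0.16 in bzip68. Salicylic acid genes had 0.06, abscisic acid genes 0.01, jasmonate genes -0.09, iron genes 0.02, nuclear photosynthesis genes -0.04 and cell wall expansion genes -0.07. Each of these 7 medians took the other sign in at least 1 alternative. A median near 0 does not show that all members responded alike. At p under 0.05 were 21.4% of cell wall expansion genes (4 higher, 2 lower) and 18.5% of abscisic acid genes (3 higher, 2 lower). The share was 6.47% of all genes and 2.63% to 9.52% in the other lists. The interval lay within 2-fold for 91.3% of nuclear photosynthesis genes, but for 44.4% to 57.9% in the lists other than these and reactive oxygen enzymes.

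The glutathione S-transferases had a median of 0.11, and ERD9 among them fell in wt (-1.53 ± 0.18) with -0.57 ± 0.18 in bzip68. Clock genes differed widely between mock and H2O2 plants in both genotypes, and the hour at which each group was harvested is not labelled. Evening genes had medians of 1.85 in wt and 2.27 in bzip68 with a median difference of -0.11, and morning genes had -0.94 and -0.87 with 0.13, and both differences changed sign in at least 1 alternative. The 8 reference genes had a median of -0.11, and all 8 intervals lay within 2-fold.

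Chloroplast-encoded genes had a positive difference in 69 of 69 tested, with a median of 0.93, and H2O2 wt replicate 2 held almost no chloroplast counts. Without that library the median was 0.36 and 58 of 70 were positive, and 5 had p under 0.05. H2O2 bzip68 replicate 1 held the largest share of chloroplast counts (1.54%) and was the highest of its group for 52 of 69 of these genes. When it alone was left out, 0 genes were higher at p under 0.05.

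Genes with a bZIP68 peak had a median difference near that of all genes. The authors deposited peaks from seedlings expressing bZIP68-FLAG, sampled at 8 days and labelled with no treatment, so binding and expression come from different plants. Of genes assigned a peak in the shorter list, 710 were tested, with a median difference of -0.02, and 40 were higher and 37 lower at p under 0.05 (10.8%, against 6.47% of all genes). Of genes with a peak of the larger list within 1 kb, 3551 were tested and 7.74% had p under 0.05. The shorter-list genes also changed more often than all genes in the responses themselves, 19.9% against 9.74% in wt and 12.7% against 7.39% in bzip68. Whether the share in the difference goes with these shares was not tested.

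The G-box CACGTG, searched on both strands, was present in the 500 bases before the start of 174 of 706 shorter-list genes (24.6%) and of 1839 of 18055 genes tested (10.2%), and in 620 (69.2%) of the shorter-list peaks themselves. Among genes named by rule with p under 0.05 and a peak of the larger list, 11 had a G-box in that window inside such a peak. Of these, 8 had a higher and 3 a lower response in bzip68. The same count was not made over all genes tested, so these numbers are a description alone. EDR2 and GBF2 also have a peak in the shorter list, while ERD9, IAA19 and RD26 do not. The windows shown are those of the 4 with the smallest p and of GBF2, a relative of bZIP68. They are printed 5′ to 3′ on the strand of the gene, with the G-box in capitals (RefSeq TAIR10.1), and lie at chr4:10437827-10437872 (minus) for EDR2, chr4:484546-484591 (minus) for GBF2, chr1:3398439-3398484 (minus) for ERD9, chr3:5263911-5263956 (plus) for IAA19 and chr4:13709570-13709615 (minus) for RD26.
EDR2: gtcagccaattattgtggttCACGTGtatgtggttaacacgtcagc
GBF2: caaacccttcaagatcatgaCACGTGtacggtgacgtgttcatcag
ERD9: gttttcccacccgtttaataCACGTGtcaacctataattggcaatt
IAA19: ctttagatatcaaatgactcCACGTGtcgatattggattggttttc
RD26: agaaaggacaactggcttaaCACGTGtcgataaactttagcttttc
EDR2, a regulator of disease resistance, was at 22.9, 21 and 20.7 CPM in mock wt, 29.7, 33.4 and 29.5 in H2O2 wt, 20.7, 23.9 and 22.1 in mock bzip68 and 18.5, 20.8 and 21.1 in H2O2 bzip68. H2O2 wt was above all other libraries, EDR2 rose in wt (0.52 ± 0.12) and had -0.14 ± 0.12 in bzip68, and the difference was -0.66 ± 0.17 (edgeR adjusted p = 0.588). RD26, a NAC factor of the abscisic acid response, had a difference of -0.89 ± 0.27. GBF2, a G-box binding factor of the same group as bZIP68, had responses of -0.43 ± 0.15 in wt and 0.10 ± 0.15 in bzip68, neither called, and a difference of 0.53 ± 0.22. The other tested group G factors, GBF1, GBF3 and bZIP16, had p over 0.05.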

How the data were processed

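RNA-seq values were whole-number counts per gene, deposited by the authors in 1 table with 12 columns that matched a sample label. A further 6 columns matched none and were not used. TopHat2 2.1.0, RSEM 2.1.30 and the TAIR10 build are named per the submitters' processing notes, with no roles. For strand handling and rounding of counts, nothing was found in the labels. Genes were kept by filterByExpr by group, scaled by TMM and tested with edgeR 4.0.16 (quasi-likelihood F-test, robust fit, 1 mean per group, 8 residual degrees of freedom), with Benjamini-Hochberg adjustment over 18205 genes. This fit was also run on simulated counts with no outlying library and no pairing, so that run cannot speak for these features of the data. Each SE was derived from the F statistic, and CPM used TMM library sizes. Alternatives were DESeq2 1.42.0, limma 3.58.1 voom with library weights, other scalings and filters, replicate blocks and left-out libraries.

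Peaks, with scores and adjusted p-values, are the authors' own, per the file headers. The score (a multiple of −log10 p) and the p-values were not used to filter. In the reference, 5343 of 5343 nuclear peak genes found there overlapped the position given in the peak table. Same-numbered mock and H2O2 bzip68 libraries deviated together (r = 0.37, 0.49 and 0.18), a pairing seen in the data and not in the labels. The main fit, its SEs and its p-values did not use this pairing. The replicate block within genotype did, and called 8 genes for the difference. In no other pair of groups were all 3 above 0.1.

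Members, the 22 gene lists and the naming rule were chosen with earlier results of these data known. Named were bZIP68, the 10 genes per direction with the smallest p (a symbol, at least 5 CPM in the highest group), the 6 per direction with the largest difference at p under 0.05 (at least 5 CPM in every group) and up to 4 genes per list by p.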

Additional observations from a re-analysis of the deposited data

How the results depend on the processing

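The number of genes called for the difference of responses was 0 in the main analysis and stayed 0 with limma voom, other scalings, other filters, no robust fit, organelle genes left out, the replicate block over all groups, and without either pair of doubted libraries. It was 24 (20 higher, 4 lower) with DESeq2, and between 0 and 26 with 1 library left out (higher, 0 to 26; lower, 0 to 1), where 26 came without mock wt replicate 3. With the replicate block within genotype it was 8 (6 higher, 2 lower), all of them among DESeq2's 24, and 1796 genes had p under 0.05, while the replicate block over all groups gave 1552. At p under 0.05 there were 2043 genes with limma voom, 2362 without the pair of libraries named in another style (chosen after seeing the data), and 705 to 2315 with 1 library left out. Calls in wt numbered 2888 with limma voom and 1126 to 2289 with 1 library left out, and calls in bzip68 2296 and 719 to 1753. Limma voom called 1390 genes in both responses. Genes called in both with opposite sign numbered 0 in the main analysis, 1 with DESeq2, 6 with limma voom, 5 with the replicate block within genotype, 2 without the 2 libraries that stood apart, and 0 to 6 with 1 library left out. The cause of these moves was not tested. Reversal was checked for bZIP68 and the named genes with p under 0.05 in the main analysis, and not for the other named genes. Among those checked, only bZIP68 had a reversed value. It was -0.29 with limma voom and between -0.24 and 0.69 with 1 library left out (0.686 without H2O2 bzip68 replicate 2). Without mock bzip68 replicate 3, H2O2 bzip68 replicate 1 and H2O2 bzip68 replicate 3 it was -0.02, -0.24 and -0.22. Of the calls of a response among named genes, 33 of 51 in wt and 21 of 31 in bzip68 held with every library left out in turn. For 30.3% of genes the 95% interval reached a 2-fold difference, and how far depth sets its width was not tested.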
